A study of Mus musculus with 6 samples.

Results

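Polycomb genes were read from 6 Affymetrix expression arrays of blood-forming cells from adult mouse bone marrow. The 10 genes were Ezh1, Ezh2, Eed, Suz12, Bmi1, Cbx2, Cbx7, Cbx8, Phc1 and Phc2, taken by name with every probe set annotated to 1 of them alone, whatever its value. This gave 25 probe sets of the 34945 that carried a single gene symbol, for 10 of 18193 genes. All cells were LSK cells (lineage-negative, Kit-positive and Sca1-positive) of mice 10 to 14 weeks old, split by antibody staining for CD34 and Flt3. The 3 groups, with 2 arrays for each, were CD34-Flt3-, CD34+Flt3- and CD34+Flt3hi. The study looked for expression differences between LSK fractions that differ in function. Strain, genotype and the number of animals per sort were not given in the sources used here, so p-values cover only the spread between these arrays, and that spread may be technical. Titles of the samples hold a code whose meaning is not stated, written A, B or C here: replicate 2 of every group has code A, replicate 1 of both CD34+ groups code B and replicate 1 of CD34-Flt3- cells code C.

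Polycomb proteins keep genes silent through marks on histones, and they work as a pair of complexes. In Polycomb repressive complex 2 (PRC2) the alternative enzymes EZH1 and EZH2 methylate lysine 27 of histone H3, together with the core partners EED and SUZ12. EZH2 is found mostly in dividing cells and EZH1 also in resting ones. In the canonical form of complex 1 (PRC1), a CBX protein reads that mark, a PHC protein links complexes to each other, and BMI1 is a partner of the RING enzymes that add ubiquitin to histone H2A. BMI1 is known for keeping blood stem cells self-renewing, and CBX7 and CBX8 are known as alternative readers with different effects in these cells.

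Ezh1 and Cbx7 were lower in CD34+Flt3- than in CD34-Flt3- cells, by 2.85-fold and 3.06-fold. Against CD34-Flt3- cells, CD34+Flt3hi cells had 4.20-fold less Cbx7 and 1.83-fold more Ezh2. These 4 differences, in 3 of the 10 genes, were those that passed an adjusted p of 0.05 in limma over all genes. Between CD34+Flt3hi and CD34+Flt3- cells none of the 10 passed. The share of genes that passed was 2 of 10 in the comparison of CD34+Flt3- with CD34-Flt3- cells, where 2.10% of all genes passed. It was 0 of 10 for CD34+Flt3hi against CD34+Flt3- cells (0.61% of all genes) and 2 of 10 for CD34+Flt3hi against CD34-Flt3- cells (6.11%). An unadjusted p under 0.05 was found for 4, 1 and 5 of the 10 genes in these comparisons, and for 16.9%, 6.76% and 18.3% of all genes.

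The start regions of the genes with a call are shown, because Ezh2 was higher and Ezh1 lower in a CD34+ group, and Cbx7 had the largest difference of the 10 genes. Each is the RefSeq window from 250 bases before the annotated start to 50 bases past it in build GRCm38.p6, read 5′ to 3′ on the gene's strand. The windows lie at chr6:47594981-47595280 (minus strand) for Ezh2, chr11:101226414-101226713 (minus strand) for Ezh1 and chr15:79932597-79932896 (minus strand) for Cbx7. Capitals mark matches, on either strand, to E2F sites (TTTCGCGC, TTTGGCGC or TTTCCCGC), the CCAAT box (CCAAT), the CHR element (TTTGAA) and the Ets core (CCGGAAG). E2F factors and the CHR element are known for control of cell cycle genes.

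Ezh2: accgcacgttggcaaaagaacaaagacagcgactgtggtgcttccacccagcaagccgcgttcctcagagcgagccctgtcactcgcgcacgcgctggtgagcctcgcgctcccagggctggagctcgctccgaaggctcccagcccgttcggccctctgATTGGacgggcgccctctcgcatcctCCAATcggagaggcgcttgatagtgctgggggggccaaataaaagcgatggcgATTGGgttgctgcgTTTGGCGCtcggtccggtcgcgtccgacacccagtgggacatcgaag
Ezh1: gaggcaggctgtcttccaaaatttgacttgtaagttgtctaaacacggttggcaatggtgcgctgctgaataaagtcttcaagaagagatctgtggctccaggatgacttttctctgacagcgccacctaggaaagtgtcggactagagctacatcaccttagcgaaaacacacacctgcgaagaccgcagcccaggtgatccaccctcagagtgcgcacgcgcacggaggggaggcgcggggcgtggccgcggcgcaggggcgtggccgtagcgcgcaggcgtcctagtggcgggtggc
Cbx7: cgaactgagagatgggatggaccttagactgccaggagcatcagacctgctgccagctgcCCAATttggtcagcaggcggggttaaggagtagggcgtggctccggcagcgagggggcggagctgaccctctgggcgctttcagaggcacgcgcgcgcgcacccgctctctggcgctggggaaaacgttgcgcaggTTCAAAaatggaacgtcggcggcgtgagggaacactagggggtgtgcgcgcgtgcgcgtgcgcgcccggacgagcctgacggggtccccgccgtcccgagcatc

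The Ezh2 window held 1 E2F match, TTTGGCGC, beginning 3 bases after the start, and 3 CCAAT matches. None of the letters searched was found in the Ezh1 window. The Cbx7 window held 1 CCAAT match and 1 CHR match, the latter beginning 54 bases before the start. Of the 9 Polycomb genes with a window in the table, 2 (Ezh2 and Suz12) held an E2F match, against 1.84% of 32851 windows in all. A CCAAT match was held by 6 of these genes, against 37.4%. Genes counted when any of their windows matched, while the percentages are of single windows. G and C made up 64.3% of the Ezh2 and 71.0% of the Suz12 window, against a median of 52.7% over all windows. The part of base content in the matches was not tested. A CHR match was found for Eed, Suz12 and Cbx7, against 17.9%, and an Ets match for Phc2, in 1 of its 3 windows, against 8.86%. A match describes the letters and shows no binding.

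Values below are log2 of the deposited intensity. Each gene was read from its brightest probe set, and all 10 of these lay above background on all 6 arrays. Background was set at a log2 of 4.50 from 27 probe sets for bacterial RNA, as the percentile 90 of their readings. Levels of different probe sets are not compared, since each has its own response. Cd34 RNA followed the sort, at 8.78 and 9.45 in CD34-Flt3- cells, 10.51 and 10.68 in CD34+Flt3- cells and 11.35 and 11.34 in CD34+Flt3hi cells. Flt3 read 12.01 and 11.75 in CD34+Flt3hi cells and 7.65 to 9.81 on the other arrays. Kit read 10.99 and 9.83 in CD34-Flt3- cells, 10.26 and 8.82 in CD34+Flt3- cells and 9.63 and 9.22 in CD34+Flt3hi cells. Against CD34-Flt3- cells Kit differed by a log2 of -0.87 and -0.98, and neither passed (adjusted p = 0.385 and 0.309 in limma). Ly6a, the gene of Sca1, had no unshared probe set. Medians of the arrays were alike, from 29.7 to 31.4 in linear units. The 3 prime actin control was dimmer in CD34-Flt3- cells, at 7693 and 7368, than elsewhere, at 12426 to 12963. The ratio of the 3 prime to the 5 prime Gapdh control, a sign of RNA length, was 5.04 and 6.34 in CD34-Flt3- cells and 6.59 to 8.42 on the CD34+ arrays, without overlap, while that of actin overlapped (3.58 and 5.55 against 3.25 to 4.44). The part of these in the results was not tested. S100a8, Ltf and Lcn2 of neutrophils, Cd3g of T cells, Cdh5 of endothelium and Col3a1 of stroma were below background on all 6 arrays. Of the same lists, Camp, Ngp, Lyz2 and Csf1r, Cd3e, Cd8a and Cd4, Pecam1, Kdr and Tie1, and Col1a2 were above it on all 6. The summed linear level of 4 endothelial markers was 391 and 364 in CD34-Flt3- cells, 211 and 203 in CD34+Flt3- cells and 129 and 105 in CD34+Flt3hi cells. Kdr and Tie1 fell, while Cdh5 and Pecam1 differed by a log2 of -0.17 and 0.02 between CD34+Flt3hi and CD34-Flt3- cells. The sum of 4 dendritic markers was 1570 and 1750, 471 and 498, and 652 and 1230 in the same order. That of 5 stromal markers was 189 and 249, 154 and 115, and 135 and 111. The sums ran from 60.3 to 93.3 for 4 erythroid markers, from 1210 to 1560 for 8 neutrophil and monocyte, 272 to 424 for 6 B lineage and 211 to 301 for 6 T and NK markers. In the neutrophil and monocyte sum Lyz2 read from 9.23 to 10.0. Csf1r of the same list, the receptor for macrophage colony-stimulating factor, read 5.79 and 6.36, 6.82 and 7.58, and 9.57 and 8.89 in the order of the sort, and passed as higher in CD34+Flt3hi cells than in both other groups (log2 2.03 and 3.16). Markers that passed as lower were Cd74 and H2-Aa of dendritic cells in CD34+Flt3- against CD34-Flt3- cells, Kdr and Tie1 of endothelium in CD34+Flt3hi against CD34-Flt3- cells, and Col1a2 in the latter comparison. Kdr also passed as lower in CD34+Flt3- against CD34-Flt3- cells, and Tie1 in CD34+Flt3hi against CD34+Flt3- cells. The part of these cells in the results was not tested. In sorted pools, fewer cells that express a gene and less RNA of it per cell cannot be told apart.

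**Figure D1:**
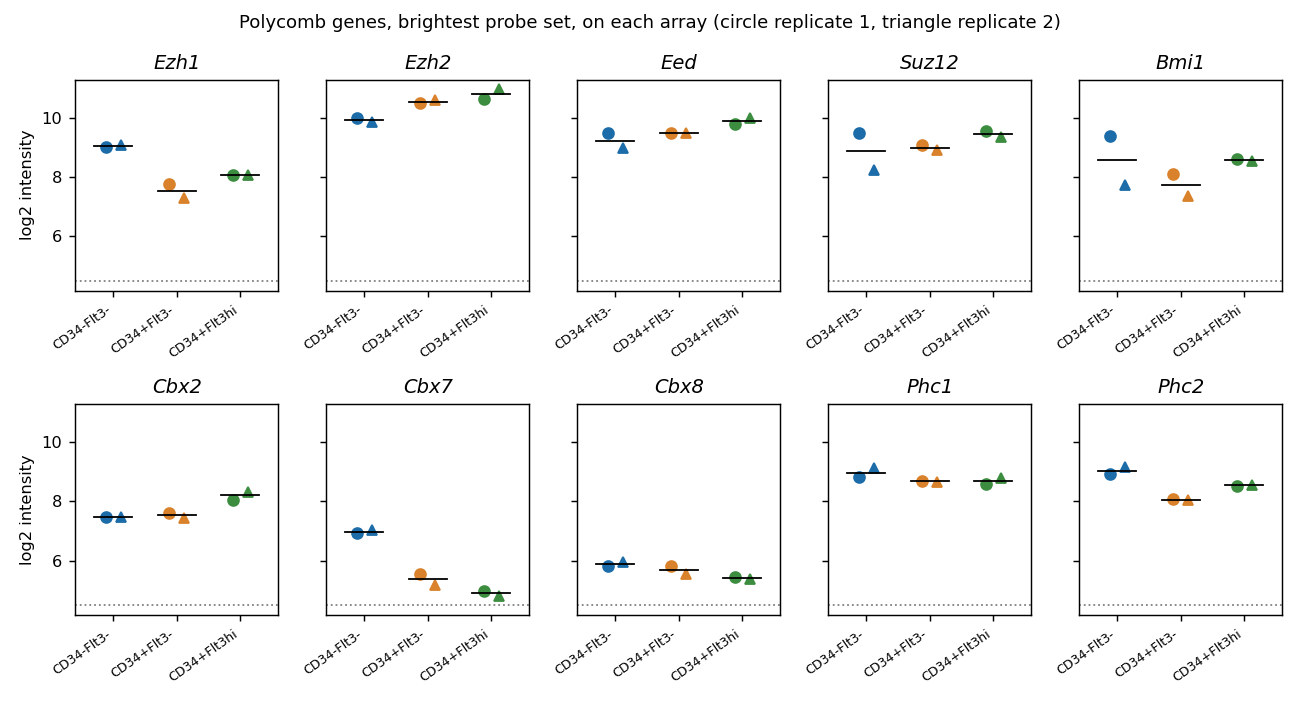
Log2 intensity (y axis) of the 10 Polycomb genes, each from its brightest probe set, on the 6 arrays by sorted group (x axis). Circles are replicate 1, triangles replicate 2, black lines group means and the dotted line background at 4.50. Ezh1 and Cbx7 stood highest in CD34-Flt3- cells, at 9.02 and 9.06 and at 6.93 and 7.03, while Ezh2 was lowest there, at 9.99 and 9.85.

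Of the PRC2 enzymes, Ezh1 (Entrez gene 14055) read 9.02 and 9.06 in CD34-Flt3- cells and 7.78 and 7.28 in CD34+Flt3- cells, while both CD34+Flt3hi arrays read 8.06. The 3 groups did not overlap, with CD34-Flt3- cells highest and CD34+Flt3- cells lowest. Ezh1 was lower by a log2 of -1.51 ± 0.26 (SE, n = 2; adjusted p = 0.0243) in CD34+Flt3- than in CD34-Flt3- cells, and the difference within code A was -1.78. CD34+Flt3hi minus CD34-Flt3- cells gave -0.98 ± 0.26, which did not pass (adjusted p = 0.0603; 0.016 with the title code as a block). The difference between both CD34+ groups, 0.53 ± 0.26, did not pass either (adjusted p = 0.785), with a 95% interval from -0.05 to 1.12.

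The call for Ezh1 in CD34+Flt3- against CD34-Flt3- cells held without CD34-Flt3- replicate 1 (-1.53, adjusted p = 0.0168) or 2 (-1.49, 0.0186), and was lost when any 1 of the 4 CD34+ arrays was left out. Its adjusted p was 0.0547 when CD34+Flt3- replicate 1 was left out and 0.256 when replicate 2 was. Leaving out CD34+Flt3hi replicate 1 or 2 gave 0.0818 or 0.0828, and a fit of the 4 arrays compared gave 0.0796. Over all 16 alternatives it ran from 0.000526 to 0.63, and 10 of them passed. In the fit of the 4 arrays compared, 47 of all genes passed at this comparison, in place of 382.

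Ezh2 (Entrez gene 14056), measured by a single probe set, read 9.99 and 9.85 in CD34-Flt3- cells, 10.49 and 10.59 in CD34+Flt3- cells and 10.63 and 10.95 in CD34+Flt3hi cells. Its arrays were in the order of the sort and did not overlap between any groups. CD34+Flt3hi exceeded CD34-Flt3- cells by 0.87 ± 0.20 (SE, n = 2; adjusted p = 0.031; 1.10 within code A). The steps between neighbouring groups, 0.62 ± 0.20 (adjusted p = 0.153; 0.035 with the title code as a block) and 0.25 ± 0.20 (adjusted p = 0.938), did not pass. The call between the outer groups was lost when any 1 of the CD34+ arrays was left out. Fewer of all genes passed in those fits than with all 6 arrays. Its adjusted p was 0.0527 in a fit of the 4 arrays compared and 0.0595 in a fit with no intensity trend. Over 16 alternatives it ran from 0.00237 to 0.403, and 10 passed.

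**Figure D2:**
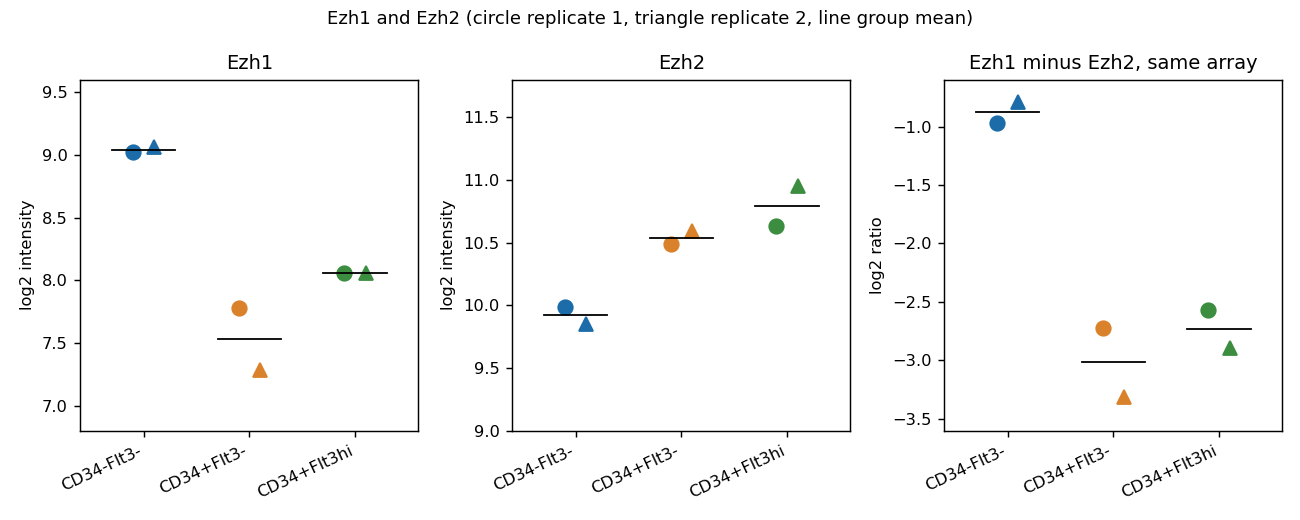
Log2 intensity of Ezh1 (left) and Ezh2 (middle), drawn over the same span of log2 units, and the difference Ezh1 minus Ezh2 on the same array (right), by sorted group. Circles are replicate 1, triangles replicate 2 and lines group means. The difference was -0.97 and -0.79 in CD34-Flt3- cells and lay between -3.31 and -2.57 on the other 4 arrays.

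The log2 ratio of Ezh1 to Ezh2 on the same array sets the enzymes against each other, so that a factor common to all values of an array cancels. It was -0.97 and -0.79 in CD34-Flt3- cells, -2.72 and -3.31 in CD34+Flt3- cells and -2.57 and -2.89 in CD34+Flt3hi cells. CD34-Flt3- cells stood apart from both CD34+ groups, which overlapped each other. Only the change of this ratio between groups can be read, since the probe sets have different responses. The ratio was 4.38-fold lower in CD34+Flt3- cells (log2 -2.13) and 3.59-fold lower in CD34+Flt3hi cells (-1.85) than in CD34-Flt3- cells. The change between both CD34+ groups was 0.28, against a replicate SD of 0.28, and was -0.01 without CD34+Flt3- replicate 2. With 2 arrays a group an exact two-sided permutation test can reach no p smaller than 0.333, and the ratio was not tested in another way.

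The other Ezh1 probe sets did not show this. They lay near or below background, with values from 3.39 to 4.99, while the brightest probe set lay between 7.28 and 9.06. CD34+Flt3- minus CD34-Flt3- cells gave 0.68, 0.02 and -0.22 on these 3 probe sets, none past the threshold. Paired with Ezh2 they gave ratio changes of 0.06, -0.60 and -0.84. The call for Ezh1 therefore rests on 1 probe set, and with the mean of all 4 the difference was -0.26 (adjusted p = 0.63).

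The PRC2 core partners gave values near those of Ezh2 in direction, but no call. Eed (Entrez gene 13626), which binds methylated lysine 27 and stimulates the enzyme, read 9.47 and 8.96, then 9.48 and 9.48, and 9.78 and 10.00 in the order of the sort. CD34+Flt3hi cells were highest without overlap, and the difference from CD34-Flt3- cells was 0.68 ± 0.24 (adjusted p = 0.157). Suz12 (Entrez gene 52615), needed for the stability of the complex, read 9.47 and 8.24 in CD34-Flt3- cells, 9.08 and 8.90 in CD34+Flt3- cells and 9.55 and 9.35 in CD34+Flt3hi cells. The CD34-Flt3- arrays spanned all but the highest reading of the others.

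Suz12 differed by 0.59 ± 0.36 between CD34+Flt3hi and CD34-Flt3- cells (adjusted p = 0.44). The difference was 1.21 without CD34-Flt3- replicate 1 and -0.03 without replicate 2. Eed gave 0.93 without CD34-Flt3- replicate 1. The title code as a block rests on replicate 2 alone for CD34-Flt3- cells. With it both passed, at 1.12 for Suz12 (adjusted p = 0.0067) and 0.99 for Eed (adjusted p = 0.0126). Rbbp4 and Rbbp7, the histone-binding subunits of the core, did not pass. Rbbp4 read 11.73 and 11.43, 12.02 and 11.76, and 12.13 and 12.03, and its difference between the outer groups was 0.50 ± 0.17 (adjusted p = 0.142).

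Among the CBX readers, Cbx7 (Entrez gene 52609) read 6.93 and 7.03 in CD34-Flt3- cells, 5.55 and 5.18 in CD34+Flt3- cells and 4.99 and 4.83 in CD34+Flt3hi cells. It was lower at each stage of the sort, with no overlap between groups, to near background in CD34+Flt3hi cells. Both CD34+Flt3hi readings, and that of CD34+Flt3- replicate 2 at 5.18, were below the brightest bacterial control value of 5.35. The log2 difference from CD34-Flt3- cells was -1.61 ± 0.27 (SE, n = 2; adjusted p = 0.0205) in CD34+Flt3- cells and -2.07 ± 0.27 (adjusted p = 0.00205) in CD34+Flt3hi cells. Within code A the differences were -1.85 and -2.20. Between both CD34+ groups it was -0.46 ± 0.27 and did not pass (adjusted p = 0.87).

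The larger Cbx7 difference passed in 14 of the 15 alternatives that gave a value, with adjusted p from 1e-05 to 0.0779, and failed when probe sets were averaged (-0.67). The smaller passed in 9 of 15, from 0.000762 to 0.264. Without CD34+Flt3- replicate 1 or 2 the smaller difference was -1.8 or -1.43, and without either CD34+Flt3hi array it stayed at -1.61. Its call was lost in each of these fits, where fewer of all genes passed than with all 6 arrays. A fit of the 4 arrays compared lost the call too (adjusted p = 0.0684), as did averaging of the probe sets (-0.57, adjusted p = 0.174). Of all genes 47 and 199 passed for that comparison in these last settings, in place of 382. The other Cbx7 probe sets were flat. One lay between 4.90 and 5.20, above background on all 6 arrays but below the brightest bacterial control value of 5.35. The other lay between 4.12 and 4.36. Their differences between the outer groups were -0.04 and 0.11.

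Cbx2 (Entrez gene 12416) encodes another reader of the family. Its arrays read 7.48 and 7.48, 7.61 and 7.45, and 8.06 and 8.33 in the order of the sort. CD34+Flt3hi cells stood above both other groups, by 0.67 ± 0.25 over CD34+Flt3- cells (adjusted p = 0.596) and 0.72 ± 0.25 over CD34-Flt3- cells (adjusted p = 0.154), and neither passed. Cbx8 (Entrez gene 30951) read 5.82 and 5.96, 5.83 and 5.55, and 5.47 and 5.38, a difference of -0.47 ± 0.26 between the outer groups (adjusted p = 0.394). Its dimmer probe set went the other way, by 0.64 (adjusted p = 0.264). Cbx6, outside the 10 genes, gave -1.02 ± 0.27 between the outer groups (adjusted p = 0.0608).

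Bmi1 (Entrez gene 12151) read 9.39 and 7.73 in CD34-Flt3- cells, 8.11 and 7.37 in CD34+Flt3- cells and 8.62 and 8.53 in CD34+Flt3hi cells. The CD34-Flt3- arrays differed by more than any groups did and overlapped both others. The mean differences were -0.82 ± 0.47 for CD34+Flt3- and 0.02 ± 0.47 for CD34+Flt3hi against CD34-Flt3- cells (adjusted p = 0.418 and 0.993). The second has a 95% interval from -1.04 to 1.07, so a change of 2-fold in either direction lies within it. Between both CD34+ groups Bmi1 gave 0.83 ± 0.47 (adjusted p = 0.859; 0.047 with the title code as a block). Without CD34-Flt3- replicate 2 the difference of CD34+Flt3- from CD34-Flt3- cells was -1.65, and without replicate 1 it was 0.02. The dimmer Bmi1 probe set read 6.96 and 5.63, 5.0 and 5.33, and 5.53 and 5.84, with replicate 1 of the CD34-Flt3- cells again the highest.

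The PHC genes encode the subunits through which PRC1 complexes join each other. Phc2 (Entrez gene 54383) read 8.91 and 9.14, 8.09 and 8.03, and 8.53 and 8.55 in the order of the sort. Like Ezh1 it was highest in CD34-Flt3- and lowest in CD34+Flt3- cells without overlap. The difference of these groups, -0.96 ± 0.24, did not pass (adjusted p = 0.0738), but did with the title code as a block (adjusted p = 0.0215). It was -1.08 without CD34-Flt3- replicate 1 and -0.85 without replicate 2. The other Phc2 probe set read 8.40 and 8.72, 8.03 and 8.12, and 8.17 and 8.30, which is the same order of groups. Phc1 (Entrez gene 13619) read 8.82 and 9.12, 8.70 and 8.64, and 8.57 and 8.77, and differed by -0.30 ± 0.24 between CD34+Flt3- and CD34-Flt3- cells (adjusted p = 0.564). Phc3, not among the 10 genes, gave -1.24 ± 0.32 in that comparison (adjusted p = 0.0873).

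**Figure D3:**
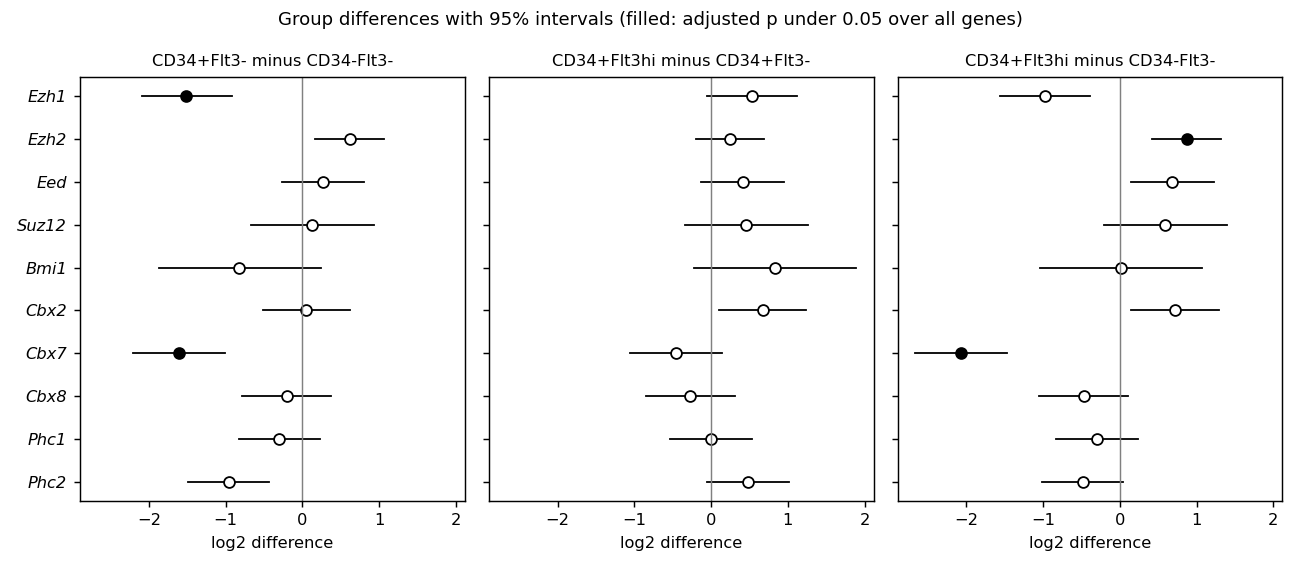
Log2 difference (x axis) of each Polycomb gene (y axis) in the 3 comparisons, with 95% intervals from limma; filled points passed an adjusted p of 0.05 over all genes. Ezh1 at -1.51 and Cbx7 at -1.61 were filled on the left, none in the middle, and Ezh2 at 0.87 and Cbx7 at -2.07 on the right.

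Read as a list, the 10 genes did not all shift one way in any comparison. Their median log2 difference was -0.25 for CD34+Flt3- minus CD34-Flt3- cells (4 higher and 6 lower in mean), against -0.10 for all genes. It was 0.43 for CD34+Flt3hi minus CD34+Flt3- cells (7 higher and 3 lower), against 0.03. For CD34+Flt3hi minus CD34-Flt3- cells it was -0.14 (5 higher and 5 lower), against -0.07. Of all genes 39%, 54% and 42.3% were higher in mean in the 3 comparisons. The arrays of the compared groups did not overlap in 6 of the 10 genes in the first comparison (44.2% of all genes), 9 in the second (40.4%) and 8 in the third (47.9%). In the second, 7 of the 9 were higher in CD34+Flt3hi cells. The comparisons share arrays, so their values are not independent. Over all genes 140 were higher and 242 lower in the first, 70 and 41 in the second and 476 and 636 in the third, and with quantile normalization repeated the splits were 261 and 196, 61 and 66, and 607 and 603. That setting moved the median of all genes in the first comparison from -0.10 to 0, and the 4 calls among the 10 genes remained. A moderated F over the 3 groups passed for Cbx7 (adjusted p = 0.00488) and Ezh1 (0.0221), but not for Ezh2 (0.0715), where 4.67% of all genes passed.

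When every probe set was tested singly, 3 of the 25 had a call in any comparison, each the brightest of its gene. Of all probe sets 1.12%, 0.343% and 4.13% passed in the 3 comparisons. Of the 15 further probe sets, 7 were above background on all 6 arrays, and of these 6, 5 and 5 had the sign of the brightest probe set in the 3 comparisons. The further probe sets of Suz12 show how far 1 gene can spread. Among the 4 above background on all arrays, CD34+Flt3hi minus CD34-Flt3- cells ran from -0.09 to 0.68, and CD34-Flt3- replicate 1 was above replicate 2 on 3 of the 4.

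**Figure D4:**
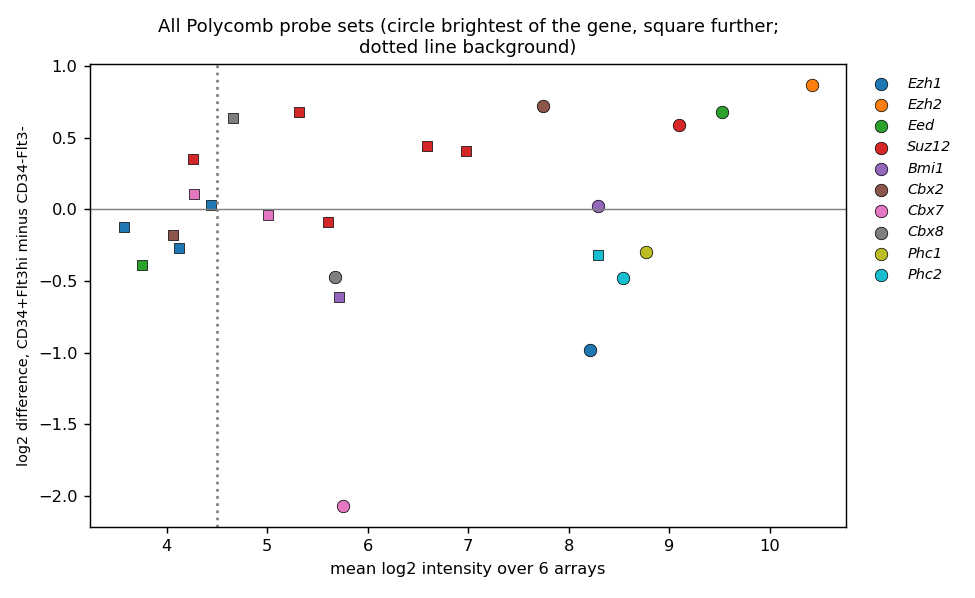
Log2 difference between CD34+Flt3hi and CD34-Flt3- cells (y axis) against the mean log2 intensity over 6 arrays (x axis) for all 25 Polycomb probe sets, coloured by gene. Circles are the brightest probe set of a gene, squares the others, and the dotted line is background at 4.50. Probe sets to the left of the line belong to Ezh1, Eed, Suz12, Cbx2 and Cbx7, and lay between -0.39 and 0.35.

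Ezh2 is known as a gene whose RNA is high in dividing cells, and the cell cycle lists differed along the same sort. Of 17 measured S phase genes, 4 were higher in CD34+Flt3- than in CD34-Flt3- cells (Tk1, Uhrf1, Pola1 and Prim1; list median 0.84), and 0 were lower. For CD34+Flt3hi against CD34-Flt3- cells 11 were higher, adding Mcm2, Mcm4, Mcm5, Mcm7, Rrm2, Gins1 and Cdc45 (median 1.06). Of 17 genes of G2 and M phase, 8 rose in the first comparison (Mki67, Ccnb2, Cdc20, Cdk1, Ube2c, Nusap1, Cenpf and Tpx2; median 2.10). Between the outer groups 16 passed as higher, adding Top2a, Ccna2, Bub1, Bub1b, Aurka, Aurkb, Birc5 and Kif11 (median 2.71). Of all genes 2.1% passed in the first comparison and 6.11% between the outer groups. The mean log2 of the S phase list, centred on the 6 arrays, gave scores of -0.40 and -1.09, 0.32 and 0.19, and 0.47 and 0.49 in the order of the sort. Scores of the G2 and M phase list were -0.70 and -2.57, 0.55 and 0.72, and 0.96 and 1.04. The CD34-Flt3- arrays differed by more in these scores than in Ezh2, where replicate 1 read 9.99 and replicate 2 read 9.85. The part of cell division in the Ezh2 difference was not tested.

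**Figure D5:**
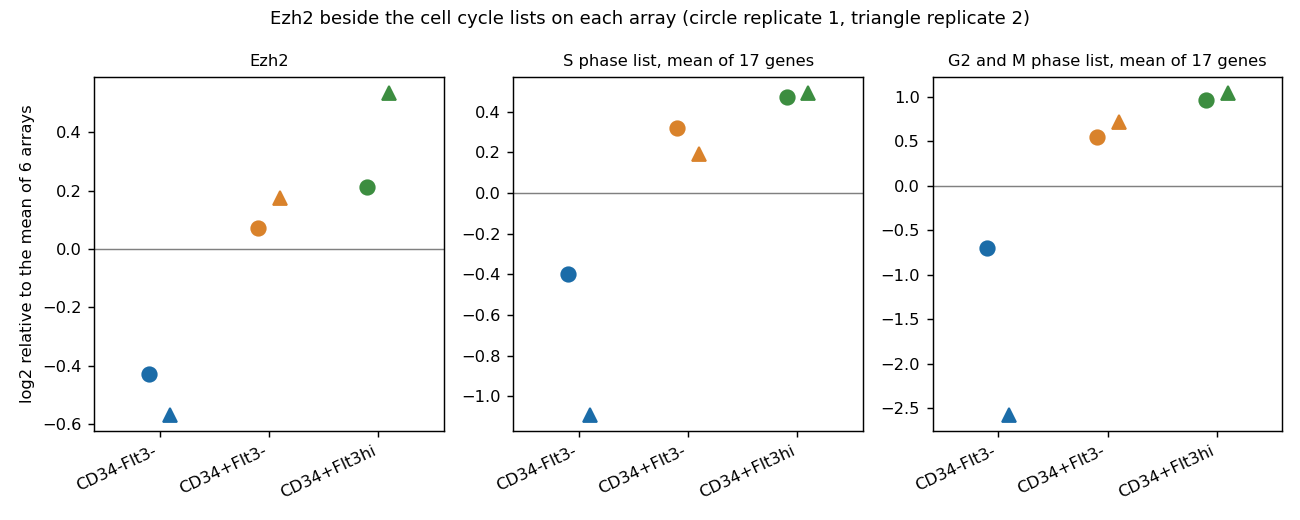
Log2 values relative to the mean of the 6 arrays (y axis) for Ezh2 and for the mean of 17 S phase and of 17 G2 and M phase genes, by sorted group. Circles are replicate 1 and triangles replicate 2, and each panel has its own scale. All 3 were lowest in CD34-Flt3- cells, where the G2 and M phase score was -0.70 and -2.57.

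Genes whose pattern over the 6 arrays was most like that of Ezh1 were Gtf2h3 (Pearson's r of 0.998), Edrf1 (0.994), Rnf8 (0.989), Timm29 (0.989) and Arfgap2 (0.987), out of 5697 genes above background with an SD over arrays of at least 0.5 times its own. Gtf2h3 read 6.5 and 6.53, 5.66 and 5.32, and 5.93 and 5.83. The most opposite were Apln (-0.994), Rbx1 (-0.990), Akr1c12 (-0.990), Clcn1 (-0.988) and Metrn (-0.985). Apln, which encodes a vascular peptide hormone, read 5.54 and 5.50, 6.82 and 7.18, and 6.63 and 6.52. For Ezh2 the most alike of 10732 genes were Dynll1 (0.994), Tedc2 (0.993), Kif23 (0.992), Psmc4 (0.992) and Kifc1 (0.987). Kif23, a motor of cell division, read 9.27 and 8.93, 9.91 and 10.26, and 10.37 and 10.74. The most opposite were Cyb5r1 (-0.996), Vasn (-0.994), Eng (-0.992), Mapkapk3 (-0.992) and Znrd1 (-0.992). Eng encodes a receptor for factors of the TGF-beta family, and read 9.52 and 9.80, 8.98 and 8.72, and 8.63 and 8.36. With only 6 arrays in 3 groups such values are reached by many genes and are a description.

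The wider Polycomb machinery held 31 further measured genes. By limma none passed in any comparison, beside 2.1%, 0.61% and 6.11% of all genes. An unadjusted p under 0.05 was found for 7, 1 and 5 of the 31, beside 16.9%, 6.76% and 18.3% of all genes. The median differences of the 31 were -0.19, 0.17 and -0.12. In the order of the sort, the E3 ligase gene Rnf2 read 10.07 and 8.83, 9.43 and 8.50, and 9.5 and 9.58, and its partner Ring1 read 7.56 and 7.83, 7.19 and 6.97, and 7.49 and 7.20. Pcgf2, the closest relative of Bmi1, gave 0.89 ± 0.29 for CD34+Flt3- minus CD34-Flt3- cells (adjusted p = 0.151), and Pcgf6 of a variant PRC1 gave 0.66 ± 0.31 between the outer groups (adjusted p = 0.293). Of the PRC2 accessory genes, Jarid2 gave -0.57 ± 0.24 and Phf1 -0.58 ± 0.31 at the first step (adjusted p = 0.273 and 0.37). The variant PRC1 genes Kdm2b and Bcor gave 0.48 ± 0.23 and -0.67 ± 0.34 between the outer groups (adjusted p = 0.316 and 0.346). Foxk1 and Asxl1 of the deubiquitinase complex gave -0.77 ± 0.28 and -0.38 ± 0.25 (adjusted p = 0.166 and 0.477).

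Of 10 genes that oppose Polycomb, the H3K27 demethylases and trithorax group, 1 passed in CD34+Flt3hi against CD34-Flt3- cells, where 6.11% of all genes did. Kmt2a, which methylates lysine 4 of histone H3 and keeps Hox genes active, read 9.91 and 9.66, 9.14 and 9.02, and 8.56 and 9.0. It was 2.01-fold lower in CD34+Flt3hi cells when set against CD34-Flt3- cells (log2 -1.01 ± 0.25, adjusted p = 0.04). None of 8 known Polycomb targets passed by limma in any comparison, and 0 had an unadjusted p under 0.05. Of all genes 2.1%, 0.61% and 6.11% passed in the 3 comparisons, and 16.9%, 6.76% and 18.3% had an unadjusted p under 0.05. With so few targets, 0 is near these shares. Of the 8 targets, 5 were above background in any group. Cdkn2a, the cell cycle inhibitor gene best known as a target of BMI1, stayed between 4.04 and 4.54, at or near background on all 6 arrays. Ebf1, a B cell factor gene, read between 4.04 and 5.25, and Pax6 between 4.77 and 5.29.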

How the data were processed

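Per the submitters' processing notes, the authors used RMA (robust multi-array average), with no version or list of arrays. Per the labels, sorted cells were lysed directly, RNA was amplified in a protocol for small samples, and biotin-labelled RNA was hybridised. The deposited values are taken as linear intensity, an inference from their range (6.50 to 24173), and their log2 was analysed. Of 45101 probe sets, 64 were controls, 932 named several genes and 9160 none. Symbols were updated by Entrez gene through RefSeq (99.4% matched). Each gene was read from the probe set of highest mean log2. 26.7% of genes had a mean below background.

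The 3 group means were estimated from all 6 arrays in limma, version 3.58.1, under R 4.3.3 with the package data.table, version 1.17.8. Variances were moderated with an intensity trend (degrees of freedom: residual 3, prior 6.86). P-values are two-sided, with Benjamini-Hochberg adjustment across 18193 genes. Arrays have no depth, and their number limits the precision. The script was tested on simulated data. Named were the 10 genes, members of fixed lists that passed (or the 2 with the smallest F p), and the 5 genes most like and most unlike Ezh1 and Ezh2; Cbx6, Rbbp4, Rbbp7 and Cdkn2a were added after their values were seen. The genes and lists were chosen with earlier results of these data known. Alternatives were the title code as a block, quantile normalization, median centring, other probe set summaries, a filter on dim genes, other variance models, fewer arrays and a threshold of 0.10. Plots were made in Python 3.11.15 (matplotlib 3.10.9).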

Additional observations from a re-analysis of the deposited data

How the results depend on the processing

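Groups of 2 arrays limit what these data can show, and the differences of Ezh1 and Cbx7 were each seen on 1 probe set alone. The title code was also fitted as a fixed replicate block, which fits CD34-Flt3- replicate 1 exactly. That fit has fewer residual degrees of freedom than the 3 of the fit without a block, so its p-values lean more on the prior. With that block 4, 1 and 5 of the 10 genes passed in the 3 comparisons, in place of 2, 0 and 2. Of all 18193 genes 1579, 670 and 2360 passed with it, in place of 382, 111 and 1112. Ezh2 then passed at the first step (0.80) and Ezh1 between the outer groups (-1.12), as Ezh1 also did when dim genes were left out (-0.98). Leaving out dim genes removes Cbx7 from the test, so 1 gene passed at the first step, beside 356 of all 9097 genes kept. With only the 4 arrays compared, 0 passed at the first step (Ezh1, at -1.51, was lost). Only Cbx7, 1 gene, passed between the outer groups (Ezh2, at 0.87, was lost). Of all genes 47 and 892 passed in these fits. With no intensity trend the same single gene passed between the outer groups (1, Ezh2 again lost at 0.87), beside 1075 of all genes. With the mean of all probe sets, 0 and 1 passed at the first step and between the outer groups, beside 199 and 932 of all genes. In that setting Ezh1 gave -0.26 and -0.08 at the steps, and Ezh1 minus Ezh2 changed by -0.88, -0.32 and -1.20. With the further Ezh1 probe sets, all at or near background, that change was 0.06, -0.60 and -0.84 at the first step, -0.90, -0.39 and -0.30 at the next, and -0.84, -0.99 and -1.14 between the outer groups.

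Leaving out an array left its group with 1 array, so effect sizes alone are given here for these fits. Ezh1 ran from -1.76 to -1.26 at the first step, Ezh2 from 0.71 to 1.03 between the outer groups, and Ezh1 minus Ezh2 from -2.43 to -1.83 at the first step and from -0.01 to 0.58 at the next. Differences that had not passed changed sign as follows. At the first step, the mean of all probe sets turned Eed to -0.03, Cbx2 to -0.02 and Cbx8 to 0.17, and leaving out an array gave -0.48 to 0.75 for Suz12, -1.65 to 0.02 for Bmi1 and -0.03 to 0.13 for Cbx2. At the next step Phc1 became 0.02 with centred arrays and -0.10 to 0.10 without an array. Between the outer groups the mean of all probe sets turned Bmi1 to -0.30 and Cbx8 to 0.09, and leaving out an array gave -0.03 to 1.21 for Suz12 and -0.82 to 0.85 for Bmi1. The cause of these changes was not tested.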
